A study of Rattus norvegicus with 9 samples.

Results

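Messenger RNA splicing factors and the RNA-binding and RNA helicase families around them were followed on 9 arrays of rat oligodendrocyte progenitor populations. Members were chosen by gene symbol: names beginning with Srsf, Hnrnp, Sf3a, Sf3b, Snrp, Snrnp, Prpf, U2af, Luc7l, Ddx, Dhx, Celf or Elavl, names of Rbm followed by a digit or x, and Qki. This gave 142 genes, measured by 201 probes, of 12199 genes named on the arrays. Qki was not among the 142. The families were taken up because RNA processing genes leaned lower in O4 than in NG2 cells on these same arrays, so the O4 minus NG2 values below are a description and carry no test.

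The cells came from oligodendrocyte progenitor cultures of newborn rats; no strain, genotype change or treatment is given. They were sorted by surface antigens into cells with O4 but without NG2 (called O4), cells with A2B5 and NG2 (NG2/A2B5) and cells with NG2 only (NG2), with 3 one-colour arrays per population. Array titles carry the numeral I, II or III; whether the numerals match the 3 cultures of the study is not stated, and p-values therefore reflect only the spread among the 9 arrays, which may be technical. The study concerns the refilin and filamin complex and filopodia in these progenitors, comparing every population with both others. All RNA passed through 2 rounds of in vitro transcription from 10 ng. In sorted bulk samples, fewer cells of a type and less RNA per cell cannot be told apart.

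Splicing removes introns in a particle built from small nuclear ribonucleoproteins (snRNPs). Their Sm proteins, the SF3 subunits of the U2 snRNP, the U2AF dimer at the 3′ splice site, the PRPF proteins and several DEAH-box (DHX) helicases form the core of this machine. SR proteins mostly favour exon inclusion and hnRNPs often oppose it, while CELF, ELAVL and several RBM proteins adjust single exons or the stability of messages, and DEAD-box (DDX) helicases act from ribosome assembly to translation. In oligodendrocytes, splicing is best known for the isoforms of the myelin proteins, and hnRNP proteins also take part in carrying Mbp mRNA into the processes.

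Of 14 measured markers of the oligodendrocyte lineage, 11 read at or above the 25th percentile of their array's probes on all 9 arrays, among them Sox10, Olig1, Olig2, Cnp, Mag and Bcas1. Pdgfra did so on 8 arrays, and the myelin genes Mbp and Mog on 6 each. The NG2 gene Cspg4 read 6.96, 6.53 and 7.27 on the log2 intensity scale on O4 arrays, sorted as lacking the NG2 antigen, 6.70, 6.99 and 7.53 on NG2/A2B5 arrays, and 7.08, 7.19 and 7.38 on NG2 arrays. Its transcript was thus bright in all populations, and the arrays overlapped (O4 minus NG2 -0.30, adjusted p = 0.803 by limma). Of the 14 measured lineage markers, 0 were called between populations with limma at an adjusted p under 0.05, and 0 also had an unadjusted p under 0.05. Array medians lay between 1.05 and 1.07 intensity units, and between 34926 and 34975 probes had a value on each array.

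Most of the splicing genes gave clear signal. A value was available for 141 of the 142 genes, and Prpf31 had none on any array. Of these, 129 (91.5%) read at or above the 25th percentile of all probes on all 9 arrays, against 8901 of 12167 measured genes (73.2%). The median of their mean log2 intensities was 3.68, against 1.70 over all genes, and 112 members lay above that overall median. Signal also depends on the probe, so readings of different genes are not an order of RNA amounts. The median SD within populations was 0.25 over the 129 bright members and 0.27 over all bright genes.

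The brightest member of each family is given here by its own mean over the 9 arrays. Snrpg, an Sm protein of the snRNP ring, averaged 7.86 on the log2 scale. Hnrnph1, a G-run binding hnRNP, averaged 7.79, and Rbm8a, a core protein of the exon junction complex, 7.66. Sf3b1, the largest subunit of the U2 snRNP's SF3b complex, averaged 7.27. The SR protein Srsf2 averaged 7.09, and Prpf8, at the catalytic centre of the spliceosome, 6.55. U2af2, the polypyrimidine tract binder, averaged 6.43, with the other members of its group at 6.15 (Luc7l2), 4.42 (U2af1l4) and 1.99 (Luc7l3). Among helicases Ddx1 averaged 6.36 and Dhx36, which unwinds G-quadruplexes, 4.55. Celf1 averaged 4.85, Celf5 3.05, Elavl3 2.81, Celf2 1.23 and Elavl4 -0.18, while Celf3 and Celf6 averaged -3.15 and -3.69, under the 25th percentile on most arrays. The other dim members were Ddx21, Ddx31, Ddx55, Hnrnpab, Hnrnpc, Hnrnph2, Prpf18, Rbm24, Rbm41 and Srsf12, each of which fell short of that percentile, or had no value, on at least 1 array.

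Between O4 and NG2 cells, 55 of the 141 measured members were higher and 86 lower in O4, with a median difference of -0.067 on the log2 scale, where the median over all 12165 genes tested was 0.016. Most families shared this lean. Of 10 SR proteins 9 were lower in O4 (median -0.18), and of 16 hnRNPs 12 were lower (median -0.18). Among DHX helicases, grouped by symbol, 9 of 13 were lower (median -0.19) and among DEAD-box helicases 18 of 27 (median -0.065). PRPF proteins were lower in 7 of 9 (median -0.10), SF3 subunits in 5 of 9 (median -0.11) and RBM proteins in 17 of 30 (median -0.078). The snRNP proteins ran the other way, with 10 of 16 higher (median 0.066), and so did 6 of the 7 CELF and ELAVL genes (median 0.39). That last median is the value of the dim Celf6, and Celf3 (1.26) was dim as well. The bright ones differed by 0.63 (Celf2), 0.49 (Celf5), 0.08 (Celf1), 0.07 (Elavl3) and -0.12 (Elavl4). Differences were small: 120 of the 129 bright members lay within 0.5 on the log2 scale, and none lay beyond 1. By limma, 0 members were called, where 0.00822% of all genes were, and 11 members had an unadjusted p under 0.05, where 8% of all genes had. The members were picked on this contrast, so nothing is read from these counts.

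**Figure D1:**
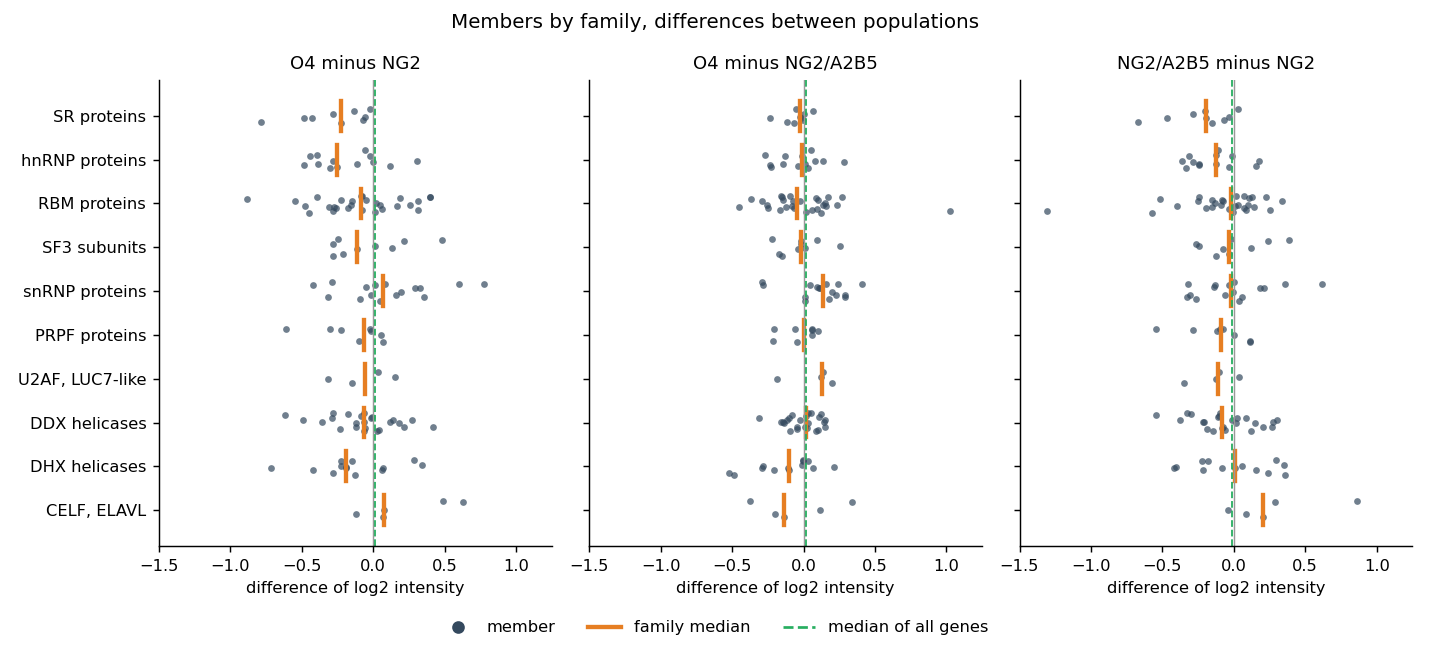
Differences of log2 intensity (horizontal axis) for the 129 members at or above the 25th percentile on all arrays, by family (vertical axis), in 3 comparisons of populations. Each dot is 1 gene, orange bars are family medians over these dots and the green dashed line is the median of all genes. Medians of SR proteins and hnRNPs sit left of 0 in O4 minus NG2 and NG2/A2B5 minus NG2, and snRNP proteins sit mostly right of 0 in O4 minus NG2/A2B5.

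The lean toward lower values in O4 was not even over the numerals. The median difference of the members, O4 minus NG2, was -0.0076 between the arrays numbered I, -0.23 between those numbered II and 0.075 between those numbered III. Over all genes the same medians were 0.046, -0.088 and 0.094. In arrays II 104 of 141 members were lower in O4 (73.8%, against 57.6% of all genes), while in arrays III 60 were lower (42.6%, against 41.4%). Array II of the NG2 cells stood out among the 9: it held the highest reading of 54 of the 129 bright members (41.9%), against 24.9% of 8901 bright genes. Without that array the members' median difference was 0.040, on the other side of 0. Over the numerals, 35 members were lower in O4 at all 3 numerals (17.9% of all genes were) and 17 were higher at all 3 (20.1% of all genes).

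Among the members lower in O4, Rbm25 was the clearest. RBM25, a splicing regulator that associates with the U1 snRNP, read 1.52, 1.22 and 1.39 on O4 arrays I, II and III, 1.55, 2.02 and 1.67 on NG2/A2B5 arrays, and 2.30, 2.17 and 2.32 on NG2 arrays. All O4 arrays lay under all arrays of both other populations, and NG2/A2B5 lay between. The difference O4 minus NG2 was -0.89 (SE 0.17), and a second bright probe of the gene gave -0.83.

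Srsf10, an SR protein known as a splicing repressor when dephosphorylated, read 0.18, 0.31 and -0.18 on O4 arrays, 0.30, 0.61 and -0.25 on NG2/A2B5 arrays, and 0.98, 1.21 and 0.48 on NG2 arrays. O4 and NG2 did not overlap, but within each population array III was the lowest. The O4 minus NG2 difference was -0.79 (SE 0.28), from the gene's only probe.

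Ddx19b, a helicase of mRNA export at the nuclear pore, read 2.31, 2.50 and 2.74 on O4 arrays, 2.44, 2.68 and 2.66 on NG2/A2B5 arrays, and 2.95, 3.19 and 3.27 on NG2 arrays. Every NG2 array lay above every other array. Its 3 bright probes disagreed, with O4 minus NG2 differences of -0.62, -0.44 and 0.31.

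The other bright members without overlap that were lower in O4 than in NG2 came from several families. Ddx46, a helicase that helps the U2 snRNP settle on the branch site, differed by -0.49, but its second bright probe by -0.11. Sf3a1 of the U2 snRNP differed by -0.28. The hnRNPs Hnrnpk and Hnrnpu differed by -0.48 and -0.44. Rbm39, a U2AF-related coactivator, differed by -0.40, but its second bright probe by -0.04. Rbm28, a nucleolar protein, differed by -0.55 and Dhx35 by -0.42. The 2 smallest such differences were those of Rbm34 (-0.23) and Sf3b1 (-0.21), named after their values were seen. The second bright Rbm34 probe gave -0.018.

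Of the bright members higher in O4 without overlap, Snrpn and Celf2 differed most. Snrpn, an imprinted gene whose Sm protein SmN is abundant in brain, read 6.66, 6.95 and 6.72 on O4 arrays, 6.41, 6.90 and 6.54 on NG2/A2B5 arrays, and 5.92, 6.32 and 5.78 on NG2 arrays. All NG2 arrays lay under all others, while O4 and NG2/A2B5 overlapped. The O4 minus NG2 difference was 0.77 (SE 0.20), and the second bright probe gave 0.27.

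Celf2, a regulator of alternative exons in brain and muscle, read 1.53, 1.76 and 1.36 on O4 arrays, 1.12, 0.98 and 1.54 on NG2/A2B5 arrays, and 0.81, 1.06 and 0.90 on NG2 arrays. O4 lay above NG2 on every array, by 0.63 on average (SE 0.19), and NG2/A2B5 overlapped both. Since CELF and ELAVL genes are also expressed in neurons, neuron markers were summed per array. The 13 measured neuron markers, 10 of them bright on all arrays, summed to 125 to 165 intensity units on O4 arrays, 117 to 163 on NG2/A2B5 arrays and 103 to 128 on NG2 arrays. Gap43 and Eno2, the brightest (mean log2 5.83 and 5.08), weigh most in these sums. In O4 minus NG2, 9 of the 13 were higher and 4 lower. By limma 0 had an unadjusted p under 0.05, where 8% of all genes had. Snap25 reached the 25th percentile on no array and Stmn2 on 1, and the part of neuronal RNA in these differences was not tested.

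Snrnp27, a protein of the tri-snRNP, differed by 0.60 between O4 and NG2, but its second bright probe differed by -0.91. The remaining bright members without overlap that were higher in O4 were Ddx59 (0.42), Rbm42 (0.40), Dhx37 (0.34), Snrnp48 of the minor spliceosome (0.33), Rbm48 (0.31), Dhx38 (0.29), the helicase of the second splicing step, and Ddx20 (0.14), a partner of the SMN complex. The second bright Dhx38 probe gave -0.036. In all, 11 members were higher without overlap and 12 lower, where 7.51% and 6.54% of all genes were.

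**Figure D2:**
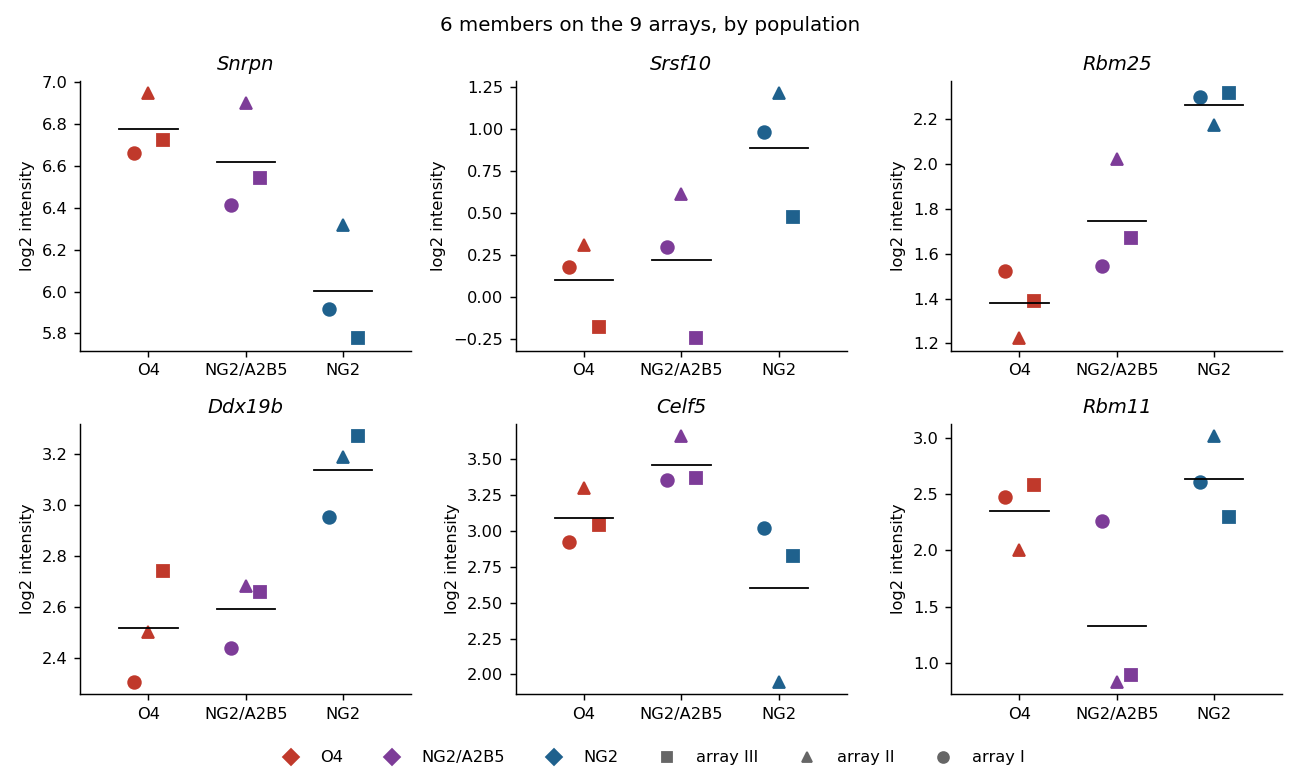
Log2 intensity (vertical axes) of 6 members on the 9 arrays, grouped by population; symbols mark the array numbers and horizontal lines the means of 3 arrays. Snrpn lies lowest in NG2, Rbm25 and Ddx19b lie highest in NG2, and Rbm11 has 2 low NG2/A2B5 arrays.

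The comparison of O4 with NG2/A2B5 shares its O4 arrays with the one above. Here the members divided evenly, 69 higher and 72 lower in O4 with a median of -0.0017 (all genes 0.020). By limma 0 were called, with 0.00822% of all genes called, and 2 had an unadjusted p under 0.05, where 3.28% of all genes had. The snRNP proteins were the most one-sided family, 14 of 16 being higher in O4 (median 0.14), among them Snrpf (0.41) and Snrpg (0.29) of the Sm ring. Of 13 DHX helicases 10 were lower in O4 (median -0.099). None of these genes passed the test, and the interval of each difference is wide: for Snrpf it was -0.60 to 1.42.

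Only 8 members separated O4 from NG2/A2B5 without overlap, 4 in each direction, where 5.3% of all genes were higher and 3.37% lower. Hnrnph3 (0.28), Sf3b5 (0.25), Luc7l2 (0.20) and the dim Celf3 (2.60) were higher in O4. The second bright Hnrnph3 probe gave -0.087. Celf3 reached the 25th percentile on 2 arrays, and its difference was 0.83 without NG2/A2B5 array III, which read -8.00, and 0.40 once values under that percentile were raised to it. Dhx9, an RNA helicase with nuclear and cytoplasmic roles, read 0.56, 0.80 and 0.80 on O4 arrays against 1.11, 1.57 and 1.05 on NG2/A2B5 arrays, a difference of -0.52 (SE 0.23). Rbm26 (-0.45), Rbm25 (-0.37) and Celf5 (-0.37) were the others lower in O4. The limma adjusted p was 1 for every one of the 8.

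NG2/A2B5 minus NG2 shares the NG2 arrays with the first comparison. Again 55 members were higher and 86 lower, with a median of -0.075 (all genes -0.011), and 14 of 16 hnRNPs (median -0.12) and 8 of 10 SR proteins (median -0.17) were lower in NG2/A2B5. By limma 0 were called, with 0% of all genes called, and 7 had an unadjusted p under 0.05, where 4.48% of all genes had. Without NG2 array II the median was 0.027. Without overlap, 7 members were higher and 10 lower, where 5.19% and 5% of all genes were.

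Celf5 and Rbm11 gave the widest differences among bright members. Celf5, a CELF protein of the nervous system, read 3.35, 3.66 and 3.37 on NG2/A2B5 arrays, against 3.02, 1.95 and 2.83 on NG2 arrays, and 2.93, 3.30 and 3.04 on O4 arrays. NG2 array II read lowest of the 9, and the difference was 0.86 (SE 0.28, adjusted p = 0.97 by limma), or 0.54 without that array. Rbm11, a tissue-restricted splicing regulator, read 2.26, 0.83 and 0.90 on NG2/A2B5 arrays, against 2.61, 3.01 and 2.29 on NG2 arrays. Arrays II and III of NG2/A2B5 were low and array I was not, the difference was -1.31 (SE 0.40, adjusted p = 0.97), and its second bright probe gave 0.46.

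The other genes named here had adjusted p-values from 0.97 to 1. Snrpn was higher in NG2/A2B5 by 0.62, Rbm48 by 0.34, Dhx38 by 0.29, Ddx59 by 0.27 and Rbm42 by 0.22. Ddx19b differed by -0.54, Rbm25 by -0.52, Dhx34 by -0.41, Ddx46 by -0.37 and Snrnp35, a protein of the minor spliceosome, by -0.31. The other bright Ddx19b probes gave 0.26 and -0.42, and the second bright Snrpn probe gave 0.21.

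Probes of the same gene agreed only in part. For 35 members with at least 2 bright probes, the brightest and the second brightest had the same sign in 25 for O4 minus NG2, in 20 for O4 minus NG2/A2B5 and in 28 for NG2/A2B5 minus NG2. Across these 35 genes, which share their arrays, Pearson's r between the probes was 0.17, 0.029 and 0.054. Between array numbers it was 0.29 for III minus I, 0.42 for III minus II and 0.48 for II minus I, where 30 of 35 had the same sign. Rbm11 had the widest gap between probes in O4 minus NG2/A2B5 (1.15) and in NG2/A2B5 minus NG2 (1.77). The median gaps there were 0.16 and 0.19, and r without Rbm11 was not computed. In O4 minus NG2, probes of Celf1, Ddx19b, Hnrnpa1, Prpf3, Prpf39, Rbm11 and Snrnp27 pointed in opposite directions by more than 0.5. Celf1, for example, gave 0.08 with its brightest probe and -0.56 with its second, and Prpf3 gave -0.23 and 0.59.

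**Figure D3:**
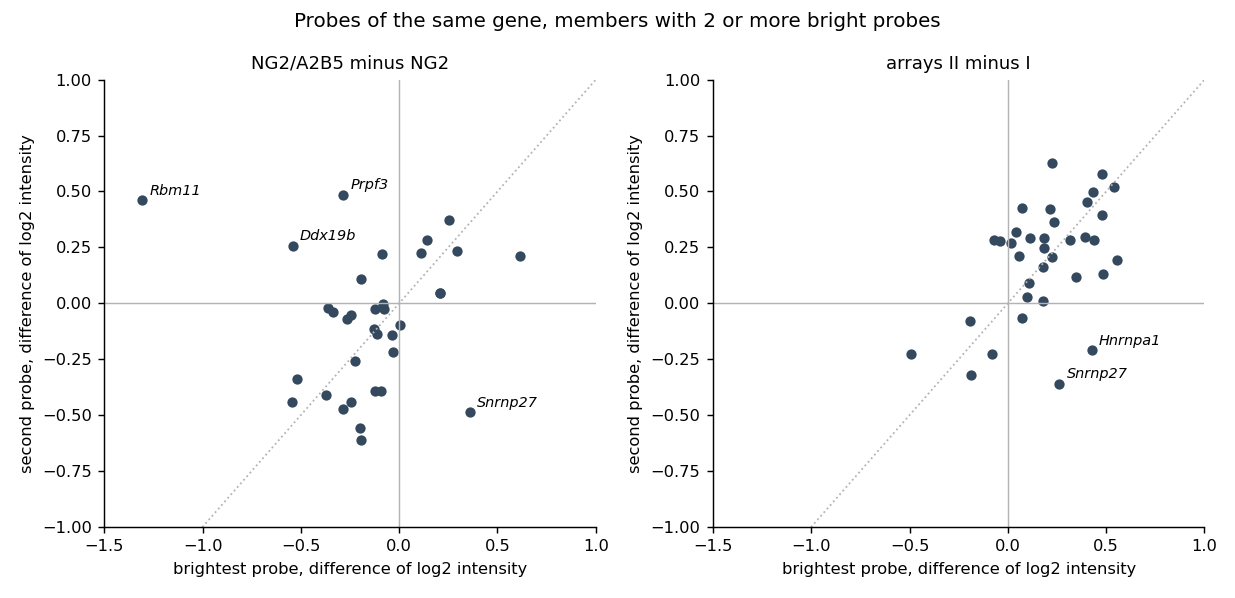
Difference of log2 intensity by the brightest probe (horizontal axis) and the second brightest (vertical axis) of 35 members with at least 2 bright probes, for NG2/A2B5 minus NG2 and for arrays II minus I. The dotted line marks equal values and genes whose probes differ by over 0.6 are named. Pearson's r was 0.48 for the array numbers and 0.054 for the populations, where Rbm11 lies far from the line (-1.31 and 0.46). The probes had the same sign in 30 and 28 of the 35 genes, and the median gaps between them were 0.15 and 0.19.

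The array numbers give contrasts other than the one used to choose the members, since each number holds 1 array of each population. They are not free of the values behind that choice, because 6 of the 9 arrays are the O4 and NG2 arrays: without NG2 array II the members' median was -0.13 in III minus II and 0.15 in II minus I. The labels do not say what the numbers stand for. Between arrays III and II, 100 of 141 members were lower in III and 41 higher, with a median of -0.18, against -0.077 over all genes, of which 56.9% were lower. The count was one-sided in 4 families: 9 of 9 SF3 subunits were lower (median -0.21), 14 of 16 snRNP proteins (median -0.28), 9 of 10 SR proteins (median -0.36) and 23 of 27 DEAD-box helicases (median -0.31). DHX helicases did not share this, with 8 of 13 higher (median 0.035). Within populations, O4 cells had a members' median of -0.086, NG2/A2B5 cells -0.26 and NG2 cells -0.29.

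By limma 4 members fell in arrays III relative to II and 0 rose, where 1.92% of all genes fell and 1.64% rose. An unadjusted p under 0.05 was found for 37 members (26.2%), near the 23.7% of all genes. Without overlap 37 members were lower and 3 higher, where 16% and 10.5% of all genes were.

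Ddx3x, an X-linked DEAD-box helicase of translation initiation, read 1.53, 1.52 and 1.20 on arrays III of O4, NG2/A2B5 and NG2, against 2.19, 2.35 and 2.28 on arrays II. It was 1.81-fold lower in III (-0.86 on the log2 scale, SE 0.14, adjusted p = 0.0445). Ddx39a, a helicase of mRNA export, read 3.90, 3.80 and 3.96 on arrays III, against 4.46, 4.70 and 5.03 on arrays II, and was 1.80-fold lower (-0.85, SE 0.14, adjusted p = 0.0471). In both genes every array III lay under every array II, and arrays I lay between or overlapped arrays II.

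Snrpa1, a protein of the U2 snRNP, read 3.40, 3.31 and 3.20 on arrays III, against 4.23, 3.99 and 4.41 on arrays II, and was 1.87-fold lower (-0.90, SE 0.16, adjusted p = 0.0494). Srsf10, whose readings are given above, differed by -0.70 (adjusted p = 0.0476). Its arrays III and II overlap because NG2 cells read higher throughout, and it is named here after its values were seen.

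Leaving out any 1 of the 9 arrays ended all 4 calls, and in the same fits 0 to 5 of all genes were called, against 233 lower and 199 higher with every array. The differences themselves stayed between -0.97 and -0.77 for Ddx3x, -0.98 and -0.73 for Ddx39a, and -1.05 and -0.76 for Snrpa1. With trend and robust variance estimates 22 members were lower in III and 1 higher (9.03% and 6.48% of all genes), and 9 to 30 were called when 1 array was then left out.

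**Figure D4:**
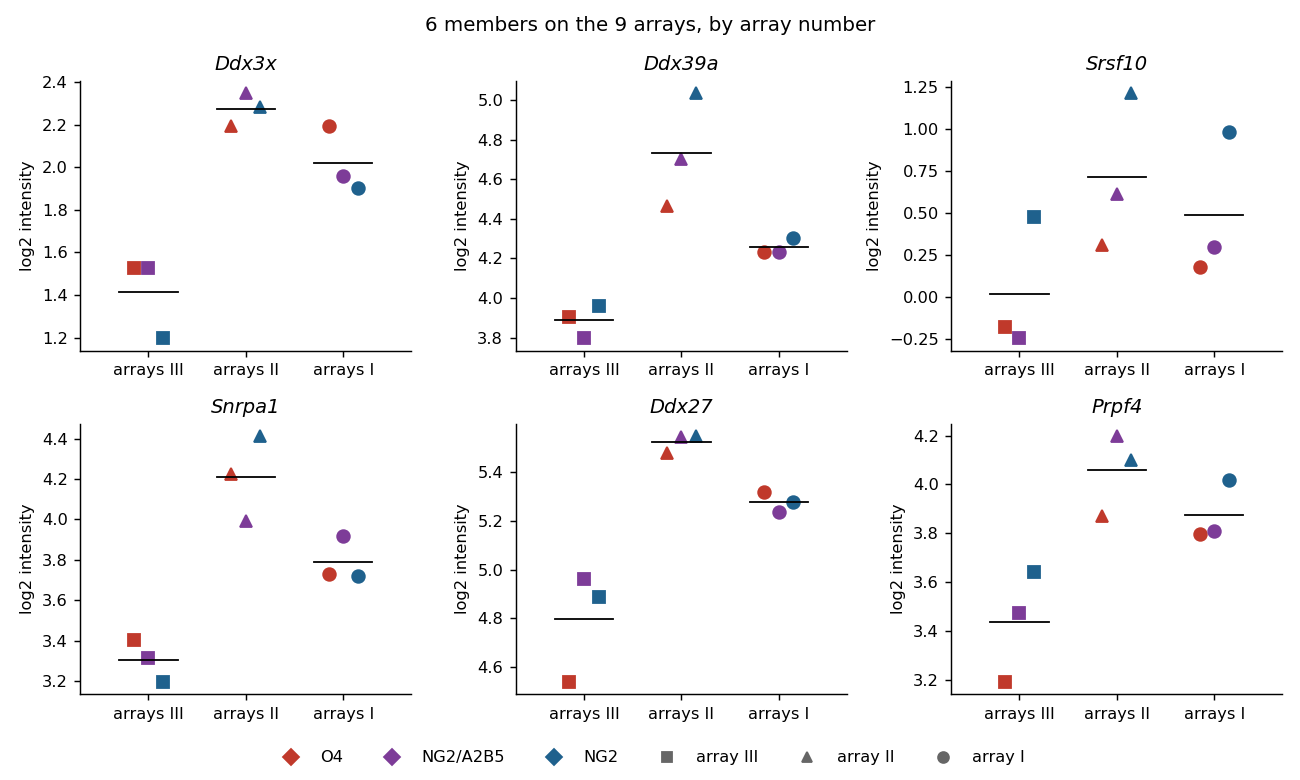
Log2 intensity (vertical axes) of 6 members on the 9 arrays, grouped by array number; colours mark populations and horizontal lines the means of 3 arrays. In Ddx3x, Ddx39a, Snrpa1, Ddx27 and Prpf4 all arrays III lie under all arrays II, and in Srsf10 the NG2 arrays lie highest at each number.

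The sequences before the start sites of the 4 genes called lower in arrays III than II are shown as a description only. They are 4 of 141 members, where 1.92% of all genes were called lower, and leaving out any 1 array ended all 4 calls. Each line gives the 250 bases upstream of the start, 5′ to 3′ on the gene's strand, from RefSeq's rat assembly GRCr8, with matches to the searched motifs in capitals. Ddx3x lies at chrX:12165984-12166233 (minus strand), Ddx39a at chr19:41331414-41331663 (minus), Srsf10 at chr5:153372066-153372315 (plus, the first of its 2 windows) and Snrpa1 at chr1:129051800-129052049 (plus).
Ddx3x: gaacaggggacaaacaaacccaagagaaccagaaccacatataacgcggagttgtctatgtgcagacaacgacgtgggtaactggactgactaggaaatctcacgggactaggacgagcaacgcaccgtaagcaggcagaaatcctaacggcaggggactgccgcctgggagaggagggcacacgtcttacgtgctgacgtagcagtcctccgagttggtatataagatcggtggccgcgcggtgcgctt
Ddx39a: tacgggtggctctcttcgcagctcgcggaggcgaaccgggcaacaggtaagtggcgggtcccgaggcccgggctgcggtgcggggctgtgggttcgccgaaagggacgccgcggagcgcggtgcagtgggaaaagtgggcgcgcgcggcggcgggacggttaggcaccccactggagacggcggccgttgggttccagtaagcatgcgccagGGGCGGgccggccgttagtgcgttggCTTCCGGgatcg
Srsf10: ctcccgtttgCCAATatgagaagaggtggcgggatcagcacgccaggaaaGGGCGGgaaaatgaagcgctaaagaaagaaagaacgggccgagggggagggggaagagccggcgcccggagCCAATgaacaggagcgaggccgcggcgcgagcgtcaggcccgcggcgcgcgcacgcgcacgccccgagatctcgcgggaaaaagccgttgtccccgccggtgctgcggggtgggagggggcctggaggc
Snrpa1: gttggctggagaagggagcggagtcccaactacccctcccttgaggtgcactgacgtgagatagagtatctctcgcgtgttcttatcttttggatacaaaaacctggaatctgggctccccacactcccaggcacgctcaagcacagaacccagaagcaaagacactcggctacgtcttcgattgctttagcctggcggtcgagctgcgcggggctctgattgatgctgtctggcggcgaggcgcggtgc
The motifs searched, on both strands, were the GC box GGGCGG, the CCAAT box CCAAT, the E-box CACGTG, the ETS-type CCGGAAG and the TATA box TATAAA. The Ddx39a window holds a GC box and an ETS-type match, the Srsf10 window 2 CCAAT boxes and a GC box, and the Ddx3x and Snrpa1 windows none of these letters.

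Over the whole set, 130 members had a window, 136 windows in all. A GC box stood in 50.7% of them, against 30.5% of 33469 windows of all annotated genes, measured here or not, and CCGGAAG in 28.7% against 7.27%. CCAAT stood in 44.9% against 34%, CACGTG in 8.82% against 5.59% and TATAAA in 8.09% against 12.9%. The median GC content was 57.6% against 51.2%. Members were bright more often than measured genes at large (91.5% against 73.2%), and no background of measured or equally bright genes was drawn. The 37 windows of members that lay lower in arrays III than II without overlap held CCGGAAG in 32.4% and GGGCGG in 43.2% of cases. A match is a run of letters and not a shown site.

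Sums of lineage and astrocyte markers also differed between arrays III and II, while those of neuron and microglia markers overlapped. The 14 measured lineage markers summed to 937 to 941 intensity units on arrays III, against 610 to 696 on arrays II, and to 663 to 817 on arrays I. From II to III, 9 of the 14 were higher and 5 lower. A sum weighs the brightest markers most, here Bcas1 and Cnp (mean log2 7.93 and 7.64). Neuron markers summed to 128 to 165 on arrays III, against 103 to 136 on arrays II, with 8 of the 13 higher and 5 lower. The 11 measured astrocyte markers summed to 187 to 260 on arrays III, against 131 to 180 on arrays II, with 6 of the 11 higher and 5 lower. Aldoc (1.27) and Gfap (1.72) rose by limma, with adjusted p-values of 0.0284 and 0.024, and Gja1 differed by -2.07 (adjusted p = 0.0682). Gfap reached the 25th percentile on 6 of 9 arrays, and its lowest readings, -3.15, -2.84 and -2.42, were those of arrays II, all under that percentile. Gjb6 reached the percentile on 2 arrays. The 13 microglia markers summed to 11.7 to 13.6 on arrays III, against 12.4 to 17.7 on arrays II, with 8 of the 13 higher and 5 lower. C1qa, C1qb and C1qc lay under the percentile on all arrays. The part of these marker differences in the splicing gene differences was not tested.

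Further members lay under arrays II on every array III without passing the test. Ddx27, a helicase of ribosome assembly, read 4.54, 4.96 and 4.89 on arrays III, against 5.48, 5.55 and 5.55 on arrays II (-0.73, adjusted p = 0.0555 by limma). Ddx52 differed by -0.63 (adjusted p = 0.0611) and Prpf4, of the U4/U6 snRNP, by -0.62 (adjusted p = 0.0628), though a second Prpf4 probe gave -0.15. In the other direction Dhx57 (0.49), Rbm5 (0.32) and the dim Hnrnpab (3.81) lay above arrays II on every array III. The Hnrnpab value rests on O4 array II, which read -10.97, and was 0.83 without it, or 0.75 once values under the 25th percentile were raised to it.

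Arrays II were also the higher ones against arrays I. Of 141 members 109 were higher in II and 32 lower, with a median of 0.20 (all genes 0.10, 38.5% of them lower). By limma 0 members were called, where 0.23% of all genes were, and 20 had an unadjusted p under 0.05 (14.2%, against 17.2% of all genes). SR proteins were higher in 9 of 10 (median 0.41) and hnRNPs in 14 of 16 (median 0.24). Without overlap 31 members were higher and 2 lower, where 14.8% and 6.77% of all genes were.

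Srsf9, an SR protein, had the smallest adjusted p of the members, 0.158 by limma. It read 7.14, 7.09 and 7.19 on arrays II of O4, NG2/A2B5 and NG2, against 6.62, 6.81 and 6.65 on arrays I, a difference of 0.44 (SE 0.11). Srsf6 (0.56), Srsf3 (0.54), Ddx39a (0.48), Hnrnpf (0.45) and Rbm17 (0.41) separated likewise. The other bright probes of Srsf3 gave 0.52 and 0.098, and the second bright Srsf6 probe gave 0.20. Luc7l3, a relative of the U1 snRNP protein LUC7, differed by -0.51, and the dim Hnrnpab by -3.38, or -0.40 without O4 array II.

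**Figure D5:**
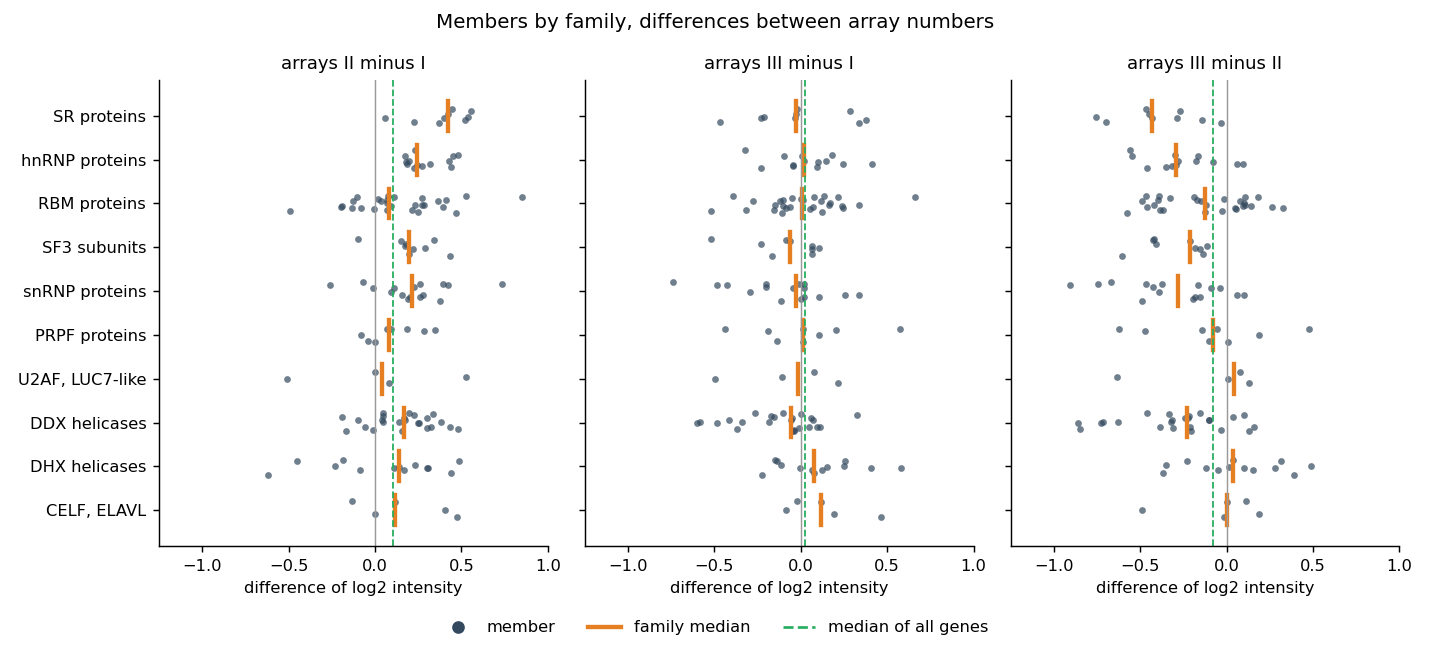
Differences of log2 intensity (horizontal axis) for the 129 members at or above the 25th percentile on all arrays, by family (vertical axis), between array numbers. Each dot is 1 gene, orange bars are family medians over these dots and the green dashed line is the median of all genes. Most family medians sit right of 0 in II minus I and left of 0 in III minus II.

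Between arrays III and I the members divided evenly, 67 higher and 74 lower, with a median of -0.011 (all genes 0.023). By limma 0 were called, with 0% of all genes called, and 21 had an unadjusted p under 0.05 (14.9%, against 12.6%). DEAD-box helicases were lower in 19 of 27 (median -0.058), and 6 of them without overlap. Without overlap 7 members were higher and 19 lower, where 10.2% and 8.18% of all genes were. Snrpb2 (-0.74), Ddx3x (-0.60), Ddx52 (-0.58), Sf3a3 (-0.52), Ddx27 (-0.48) and Ddx10 (-0.41) were lower in III, and Elavl3 (0.46), Dhx30 (0.40), Srsf5 (0.34), Snrnp70 (0.34), Rbm47 (0.34) and the dim Prpf18 (1.49) higher. The second Snrpb2 probe gave 0.08.

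Splicing factors outside these symbol families were counted beside them. Of 99 listed, 82 were measured, and between arrays III and II 60 were lower and 22 higher (median -0.16, all genes -0.077, 56.9% of them lower), with 3 falling by limma, where 1.92% of all genes fell: Tardbp (-0.86), Sfpq (-0.75) and Tra2b (-0.75). Between O4 and NG2 48 were lower and 34 higher (median -0.089) and 0 were called by limma. An unadjusted p under 0.05 was found for 12, where 8% of all genes had one. These too are RNA processing genes, and the lean of such genes in this comparison prompted the choice of families. Nothing is therefore read from these counts. Clk2, a kinase of SR proteins, and Ptbp3, an exon repressor, gave the smallest p-values there, at -0.72 and -0.65. In O4 minus NG2/A2B5 the smallest by limma were those of Pcbp3 (0.48) and Pcbp4 (0.47). In NG2/A2B5 minus NG2 they were those of Clk2 (-0.63) and Acin1 (0.54), and none of these genes was called.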

How the data were processed

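Per the labels' protocols, amplification of the total RNA used in vitro transcription with biotin, and synthetic spikes served the normalization. The authors deposited 1 linear, scaled intensity per probe and array, coded -9999 where missing; for the scanner, scaling steps and software the sources used here give nothing. Deposited intensities were not normalized again. Values at or below 0 were set to the array's smallest positive value and log2 was taken of the deposited intensity. Of 35129 probes, 16865 carry 1 symbol, 165 several and 18099 none in the platform annotation, and 16836 were matched by Entrez identifier to RefSeq GRCr8 names, which updated 1 symbol. A gene was represented by its brightest probe; "bright" means at or above the 25th percentile of probes on all 9 arrays.

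Populations were compared in 1 linear model of the 9 arrays without a block, and array numbers in a model with population as a term (limma 3.58.1, lmFit and eBayes, two-sided, R 4.3.3, statmod 1.5.0; prior degrees of freedom 1.76 and 1.55, residual 6 and 4). Calls are genes with a Benjamini-Hochberg adjusted p, taken over every gene tested, under 0.05. Ddx21 had no value on NG2/A2B5 array III. Errors are SE of a contrast and intervals are 95%. The scripts were tested on simulated data. Python 3.11.15 with matplotlib 3.10.9 drew the figures.

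The members, families, lists and tests were chosen with earlier results of these data known. Genes are named by rule. Per comparison these are up to 6 members per direction with the smallest p and no overlap of arrays. For O4 minus NG2 they are up to 10 bright members with the largest difference and no overlap. Also named are the brightest of each family, all U2AF, LUC7-like, CELF and ELAVL genes, and members whose bright probes disagree in sign by over 0.5. Each list other than the markers gives the 2 genes with the smallest p per population comparison. Alternatives were quantile normalization, median centring, leaving out dim genes, a floor, the mean of the probes, all probes, trend and robust variance, the numeral as a block, only the arrays compared and leaving out each array. The number of arrays limits the precision.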

Additional observations from a re-analysis of the deposited data

How the results depend on the processing

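Over these settings, 0 members were called in O4 minus NG2/A2B5 in any fit. Quantile normalization moved the members' median to -0.077 in III minus I and to 0.078 in II minus I. In III minus II, 13 members were called without dim genes, 17 with a floor at the 25th percentile, 23 with trend and robust variance, 0 with the mean of the probes and 0 with all probes. Trend and robust variance called 2 in III minus I (Ddx21, Snrpb2) and 5 in II minus I (Dhx40, Srsf3, Srsf6, Srsf9, U2af2). With the mean of its probes, Ddx39a was -0.090 in II minus I and Snrnp27 -0.16 in O4 minus NG2, both reversed; in each the second probe reads the other way.

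Leaving out 1 array, the members' median ranged over -0.13 to 0.040 in O4 minus NG2, -0.064 to 0.073 in O4 minus NG2/A2B5, -0.13 to 0.027 in NG2/A2B5 minus NG2, -0.070 to 0.017 in III minus I, -0.24 to -0.13 in III minus II and 0.15 to 0.25 in II minus I. The values above 0 in O4 minus NG2 and NG2/A2B5 minus NG2 come without NG2 array II; without NG2/A2B5 array III NG2/A2B5 minus NG2 was -0.014. In III minus II, 0 members were called without each array in turn; the cause was not tested. With trend and robust variance, added after the data were seen, the counts were 22, 22 and 20 without O4 arrays I, II and III, 30, 19 and 11 without those of NG2/A2B5, and 22, 9 and 11 without those of NG2.

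Apart from leaving out an array, counts of all genes called ran over 0 to 124 in O4 minus NG2, 0 to 1 in O4 minus NG2/A2B5, 0 to 95 in NG2/A2B5 minus NG2, 0 to 311 in III minus I, 136 to 1887 in III minus II and 2 to 833 in II minus I. Without 1 array they were 1 to 2, 0 to 4, 0 to 3, 0 to 2, 0 to 5 and 0 to 3 in the same order, and 980 to 2138 in III minus II with trend and robust variance.

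Same-numbered arrays of different populations correlated at r 0.037 to 0.14 in their deviations from population means, over 0.1 in 3 of 9 pairs, and other pairs at -0.11 to 0.0065; as a hint from the data, 9 of 9 arrays matched best with their own number. With the numeral as a fixed or random replicate block alone 0 members were called between populations; the fixed replicate block with trend and robust variance called 2 in O4 minus NG2 (Rbm25, Snrpn) and 1 in NG2/A2B5 minus NG2 (Snrpn).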

Other observations

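Genes of neighbouring steps of RNA handling, counted from lists chosen with earlier results known, showed 0 calls by limma in the 3 population comparisons. Since the lean of RNA processing genes in O4 minus NG2 prompted the choice of families, the counts for that comparison are a description. Exon junction, decay and export factors (22 of 30 measured) numbered 11 higher in O4 and 11 lower (against NG2, median -0.019), 1 with an unadjusted p under 0.05. Over all genes 48.1% were lower in O4 than in NG2, the median was 0.016, and 8% had such a p. Rae1, an mRNA export factor of the nuclear pore, read 0.28 to 0.56 on O4 arrays, against 0.71 to 1.10 on NG2 arrays, and Thoc2, of the THO complex, differed by -0.47. Cleavage and polyadenylation factors (16 of 22 measured) were 9 higher and 7 lower (median 0.0043), 2 with an unadjusted p under 0.05. Cpsf6, which guides the choice of poly(A) site, read 3.57, 3.49 and 3.50 on O4 arrays, against 4.10, 4.01 and 3.88 on NG2 arrays, without overlap. Pabpn1 differed by -0.70. In O4 minus NG2/A2B5 the smallest p-values of these lists by limma were those of Rae1 (-0.35), Thoc2 (-0.39), Cpsf6 (-0.35) and Cstf1 (0.22). In NG2/A2B5 minus NG2 they were those of Smg6 (-0.23), Rae1 (-0.19), Pabpn1 (-0.63) and Cpsf3 (-0.31).

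The 15 snRNP assembly factors numbered 7 higher in O4 and 8 lower (against NG2, median -0.0077), with Strap (-0.40) and Gemin2 (-0.37), both of the SMN complex, lower; 1 had an unadjusted p under 0.05. Between arrays III and II, 10 of these 15 were lower (median -0.32) and 0 were called, 6 having an unadjusted p under 0.05, where 56.9% of all genes were lower (median -0.077) and 23.7% had such a p. Other RNA-binding proteins of translation and transport (20 of 28 measured) numbered 10 higher in O4 and 10 lower (against NG2, median -0.015), 2 with an unadjusted p under 0.05. Stau2, a protein of RNA transport granules, differed by -0.50. Ago1, a microRNA effector, was higher by 0.44 in O4 and by 0.74 in NG2/A2B5 than in NG2 (adjusted p = 0.862 for NG2/A2B5 by limma). In O4 minus NG2/A2B5, which shares the O4 arrays, 15 of these 20 were lower (median -0.16), where 46.8% of all genes were (median 0.020). Of the 20, 0 had an unadjusted p under 0.05, where 3.28% of all genes had. The smallest p-values there by limma were those of Ago1 (-0.30) and Fxr2 (0.45), and among assembly factors Gemin8 (0.42) and Snupn (0.39). In NG2/A2B5 minus NG2 they were those of Ago1, the dim Lin28a (3.62), Gemin2 (-0.41) and Gemin8 (-0.25). Lin28a reached the 25th percentile on 3 arrays and read -10.48 on NG2 array II.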
